A study of Mus musculus with 10 samples.

Results

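The collagen genes of the mouse were followed through retroviral reprogramming of fibroblasts by their open chromatin. Members were the genes whose whole symbol is Col, a number, a and a number, and 44 of the 21965 genes in the deposited table fulfilled this. The submitters made ATAC-seq libraries, in which a transposase cuts and tags accessible DNA, from mouse embryonic fibroblasts (MEFs), and deposited a signal per gene. All libraries came from MEFs of E13.5 embryos that carry a GFP transgene under the Oct4 promoter (OG2), with ICR given as the strain, and about 50000 cells went into each. Every library was from MEFs infected with pMXs retrovirus and kept in mESC medium. The viruses carried Sox2 alone, Klf4 alone, Oct4 alone, the mutant Oct4-L80A alone, the 3 factors Sox2, Klf4 and Oct4 together (SKO), or the same set with the mutant in place of Oct4 (SKO-L80A). A further library added shBrg1, named for the chromatin remodelling enzyme Brg1, to SKO (SKO+shBrg1). The other 2 were SKO-L80A in medium holding 50 µg/ml of vitamin C (SKO-L80A+Vc) and SKO-L80A with Gadd45a, a gene with a known link to DNA demethylation (SKO-L80A+Ga). The control, Flag, received virus for the Flag control only. The labels give no day of harvest, and they do not say whether infected cells were sorted.

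Collagens are extracellular proteins of 3 chains wound into a triple helix, and the 44 genes encode the chains. Fibril-forming collagens give connective tissue its tensile strength, FACIT collagens decorate those fibrils, type IV collagens form the network of basement membranes, and type VI collagens form beaded filaments around cells. Fibroblasts are a main source of types I, III, V and VI, whereas types II, IX, X and XI are known from cartilage. Loss of the fibroblast programme, extracellular matrix included, is a known early part of reprogramming to pluripotency. The list held 11 fibril-forming chains, 9 FACIT, 6 basement membrane, 6 beaded filament, 4 transmembrane and 3 hexagonal network chains, 2 multiplexins, 1 anchoring fibril chain and 2 others, on 15 chromosomes.

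Each of the 10 conditions has 1 library and 2 columns in the table. How the columns relate is not given in the sources, so they were read as repeat measurements of 1 sample. Both values are given below, column 1 first. Without replicates no test was made and no error can be given, and the number of reads is unknown, so differences are described by size. The sum of a column was 112439 to 370390 signal units and its median 3.38 to 11.8, while its lower quartile stayed between 0.760 and 1.08. Between the columns of a condition the 44 collagens had a Pearson correlation of 0.915 to 0.987 on the log2 scale, which describes genes within 1 library. Differences are therefore log2 of the signal plus 0.138, each column centred on the median difference of all genes and both columns averaged. A gene was counted as higher or lower when this centred difference was at least 1, a 2-fold change, and the higher mean signal was at least 6.92, the median over the whole table. In nuclei taken in bulk, fewer cells with an open gene and a less open gene in each cell cannot be told apart.

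The labelled factors and the cell type were checked first. Sox2 had a mean signal of 81.3 in the Sox2 library against 3.93 in Flag, and Klf4 had 156 in the Klf4 library against 15.2 in Flag. Pou5f1, which encodes Oct4, had 34.3 in Oct4-L80A and 27.5 in the library labelled Oct4, against 0.968 in Flag. A Sox2 signal of 59.0 in the library labelled Oct4 goes beyond its label, which names no Sox2 virus. By raw signal Gadd45a had 39.1 in SKO-L80A+Ga against 44.7 in SKO-L80A. Smarca4, which encodes Brg1, had 20.5 in SKO+shBrg1 against 17.3 in SKO. These signals do not show that Gadd45a or shBrg1 was added, so those 2 labels rest on the submitters alone. The summed signal of 8 fibroblast markers was 81.4 to 151 over the conditions, with 114 in Flag, and 6 or 7 of the 8 reached 6.92 in each. The 4 pluripotency markers Nanog, Esrrb, Zfp42 and Dppa5a were under 6.92 in every condition.

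The signal of a gene followed the DNA around its start site. Neighbouring genes whose RefSeq start sites lie under 500 bases apart had nearly equal signal, within a mean log2 ratio of 0.1, in 96.9% of 419 pairs. The share was 73.7% of 57 pairs at 1000 to 2000 bases, 26.6% of 282 pairs at 2000 to 5000 bases and 4.66% of 686 pairs at 5000 to 10000 bases. The type IV genes lie head to head in pairs that share a start region, and each pair gave 1 measurement. Col4a1 and Col4a2 differed by a mean log2 ratio of 0.00468 over the 20 columns, Col4a3 and Col4a4 by 0.00509, and Col4a5 and Col4a6 by 0.0109. Col6a1 and Col6a2, 85161 bases apart, differed by 2.05. Of 7281 neighbouring pairs with starts over 50000 bases apart, 3.54% had nearly equal signal. Within a type IV pair, opening at one gene cannot be told apart from opening at the other.

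**Figure D1:**
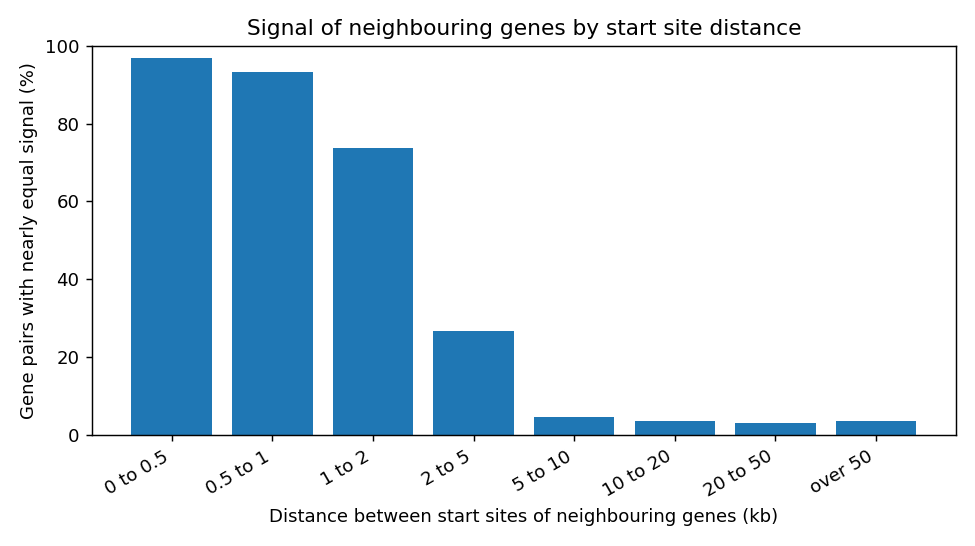
Share of neighbouring gene pairs with nearly equal signal (percent, bars) against the distance between their start sites (kb). The bars stand at 96.9% under 0.5 kb and at 4.66% from 5 to 10 kb, so the deposited value reports the few kb around a start.

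Since the value reports the start region, promoters of some collagens with large differences are shown, out of those in the RefSeq table (GRCm38.p6). It held 38 windows of 35 of the 44 genes, each from 250 bases before the start to 50 after it. The windows were searched on both strands for a POU octamer (ATGCAAA), a SOX motif (CTTTGT), a KLF motif (GGGTGTG), an AP-1 motif (TGANTCA) and a TATA box (TATAAA). None of these letter strings contains another. Capitals mark a match in the gene's own 5′ to 3′ direction, and a match to the other strand is seen as its reverse complement. Col6a3 (chr1:90843922-90844221, minus strand) and Col5a3 (chr9:20815018-20815317, minus strand) had no match. The window of Col10a1, with a centred log2 difference from Flag of -0.97 in SKO-L80A, is not shown. It had SOX letters on the other strand 185 bases and a TATA box 32 bases before the start. Col4a4 (chr1:82586800-82587099, minus strand) had the KLF letters, which begin 69 bases before its start. Col9a1 (chr1:24177360-24177659, plus strand) had them on the other strand, beginning 4 bases before its start. A second window of Col9a1 (chr1:24194953-24195252) had no match and is not shown. Col28a1 (chr6:8192568-8192867, minus strand) had the SOX letters on the other strand, beginning 217 bases before the start of this window's promoter. The gene itself runs to 8193709, beyond this window, so the window is not at its outer end.
Col6a3: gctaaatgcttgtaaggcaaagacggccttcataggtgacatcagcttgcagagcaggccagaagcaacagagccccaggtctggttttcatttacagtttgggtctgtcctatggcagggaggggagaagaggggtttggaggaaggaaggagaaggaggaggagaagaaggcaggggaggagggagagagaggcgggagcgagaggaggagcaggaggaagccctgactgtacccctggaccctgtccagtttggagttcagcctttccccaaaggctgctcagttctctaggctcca
Col4a4: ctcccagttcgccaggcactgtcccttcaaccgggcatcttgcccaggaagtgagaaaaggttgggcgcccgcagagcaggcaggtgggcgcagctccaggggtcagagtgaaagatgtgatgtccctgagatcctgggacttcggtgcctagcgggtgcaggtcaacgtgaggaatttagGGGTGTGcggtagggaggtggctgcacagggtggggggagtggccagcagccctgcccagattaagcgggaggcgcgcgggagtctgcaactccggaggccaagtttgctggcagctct
Col28a1: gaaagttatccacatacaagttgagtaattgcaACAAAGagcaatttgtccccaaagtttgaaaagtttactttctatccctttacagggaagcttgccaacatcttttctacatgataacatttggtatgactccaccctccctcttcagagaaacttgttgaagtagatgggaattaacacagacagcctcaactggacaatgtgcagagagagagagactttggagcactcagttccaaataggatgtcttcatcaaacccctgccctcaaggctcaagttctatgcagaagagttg
Col9a1: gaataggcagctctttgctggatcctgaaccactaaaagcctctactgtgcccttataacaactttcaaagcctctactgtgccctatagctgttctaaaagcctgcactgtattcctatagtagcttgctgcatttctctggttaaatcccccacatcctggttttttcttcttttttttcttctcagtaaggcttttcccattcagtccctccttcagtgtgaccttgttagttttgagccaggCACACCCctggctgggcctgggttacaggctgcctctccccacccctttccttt
Col5a3: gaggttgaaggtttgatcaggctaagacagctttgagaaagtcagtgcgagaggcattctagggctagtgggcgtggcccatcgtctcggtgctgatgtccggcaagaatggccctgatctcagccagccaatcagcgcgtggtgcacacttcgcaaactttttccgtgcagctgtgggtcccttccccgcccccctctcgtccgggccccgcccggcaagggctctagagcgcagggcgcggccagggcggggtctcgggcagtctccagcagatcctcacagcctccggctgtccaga

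Over all collagen promoters each motif was in at most 5 of 38 windows. Only the POU octamer had a larger share there than among all promoters. The POU octamer was in 4 of 38 windows, against 4.63% of 32851 RefSeq promoters. SOX letters were in 5 of 38, against 18.7% of all promoters, and KLF letters in 3, against 7.95%. The AP-1 letters were in 1 window, that of Col6a1, against 7.81% of all promoters, and the TATA box was in 5, against 13.6%. Col3a1, a fibril chain of stretchable tissues, held a POU octamer 148 bases, SOX letters 176 bases and a TATA box 117 bases before its start. These are letter matches in a short window. Col2a1, Col9a3, Col1a1 and Col12a1 are named without a promoter.

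Few collagens differed from Flag by the size rule. Among 616 values, 44 genes in 14 comparisons, 4 were past it, all higher, in 3 genes. They were Col9a3 in Klf4, Col2a1 in SKO and in SKO-L80A, and Col6a3 in SKO+shBrg1. Another 11 values were 2-fold or more but at genes under 6.92 in both conditions. Beside these counts stands the share of all 21965 genes past the same rule in either direction. It was 0.168% for Sox2 against Flag, where 0 of 44 collagens passed, and 0.874% for Klf4, where 1 of 44 did. It was 0.255% for the library labelled Oct4 and 0.0182% for Oct4-L80A, with 0 collagens in each. For SKO it was 1.33%, for SKO-L80A 1.4% and for SKO+shBrg1 1.36%, with 1 collagen in each. For SKO-L80A+Vc it was 0.961% and for SKO-L80A+Ga 0.829%, with 0 collagens in each. A single gene of 44 is near these shares, so the counts do not set the collagens apart from the other genes. All 9 comparisons rest on the same Flag library.

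The median collagen lay close to the median gene in every comparison with Flag. The median centred log2 difference of the 44 was -0.04 in Sox2, 0.01 in Klf4, -0.10 in the library labelled Oct4, 0.04 in Oct4-L80A, -0.04 in SKO, 0.02 in SKO-L80A, 0.03 in SKO+shBrg1, 0.04 in SKO-L80A+Vc and -0.11 in SKO-L80A+Ga. The centring removed sizeable shifts of all genes in column 1, 0.97 in SKO and 1.12 in SKO+shBrg1, against 0.09 and 0.16 in column 2. The spread around the median was wider than its size. In SKO, 8 of 44 collagens lay above the 95th percentile of all genes and 0 below the 5th. These 8 include both Col4a3 and Col4a4, a pair that gave 1 measurement. In Klf4, 3 lay above and 8 below, and in Sox2 1 lay above and 5 below.

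**Figure D2:**
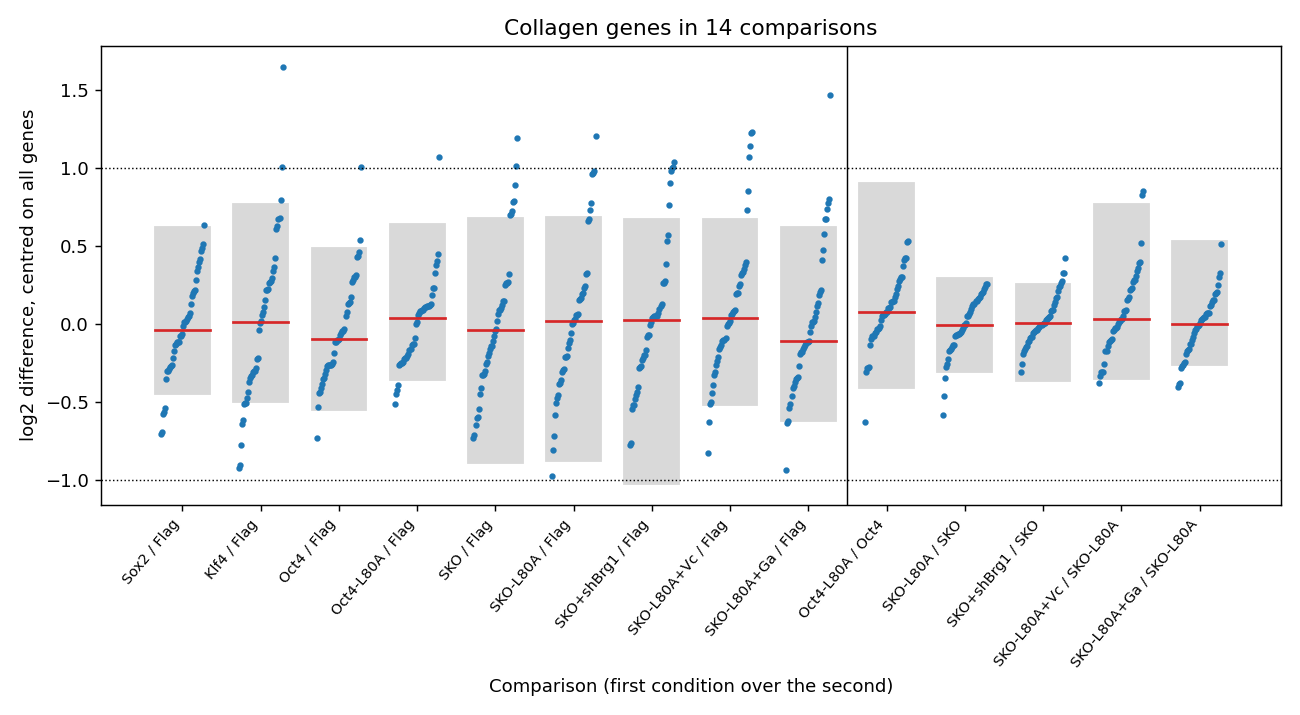
Centred log2 difference of each of the 44 collagens (points) in 14 comparisons, first condition over the second, with the collagen median (red line), the 5th to 95th percentiles of all genes (grey box) and the 2-fold lines (dotted). Medians stay between -0.11 and 0.08, and the highest point is Col28a1 in Klf4 at 1.65.

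In each condition a smaller share of collagens than of all genes had open starts. In SKO, 19 of 44 (43.2%) reached a mean signal of 6.92, against 56.7% of all genes. In Flag it was 14 of 44 (31.8%), against 47.0% of all genes. Of the 44, 24 reached it in at least 1 condition and 20 in none. Among all genes 58.7% reached it in at least 1 condition, so 24 of 44 is near that share. In all 20 columns 6 collagens reached it: Col1a1, Col5a1, Col5a3, Col6a2, Col12a1 and Col16a1, which sits on fibrils as a FACIT. The share of all genes at that level in all 20 columns was not computed. The differences of all genes varied with their level, in a direction that differed between libraries. In SKO against Flag the 29 collagens with a mean under 6.92 over all conditions had a median of -0.03, while all genes under 6.92 had -0.38. For SKO+shBrg1 these medians were 0.05 and -0.48, and for SKO-L80A 0.03 and -0.36. The 15 collagens above that level had -0.08 in SKO, against 0.06 for all genes above it. In SKO-L80A+Vc all genes under that level had -0.05 and those above it -0.02, and in SKO-L80A+Ga they had -0.18 and 0.01. In Sox2 the order was the opposite, with 0.14 under it and -0.12 above it, as in Klf4, with 0.13 and -0.09, and Oct4-L80A, with 0.19 and -0.11. So in SKO, SKO-L80A and SKO+shBrg1 the low collagens had higher medians than all low genes, and in SKO the open ones a lower median than all open genes. Collagens and all genes were not matched for level within either group, and the part of level in these medians was not tested.

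**Figure D3:**
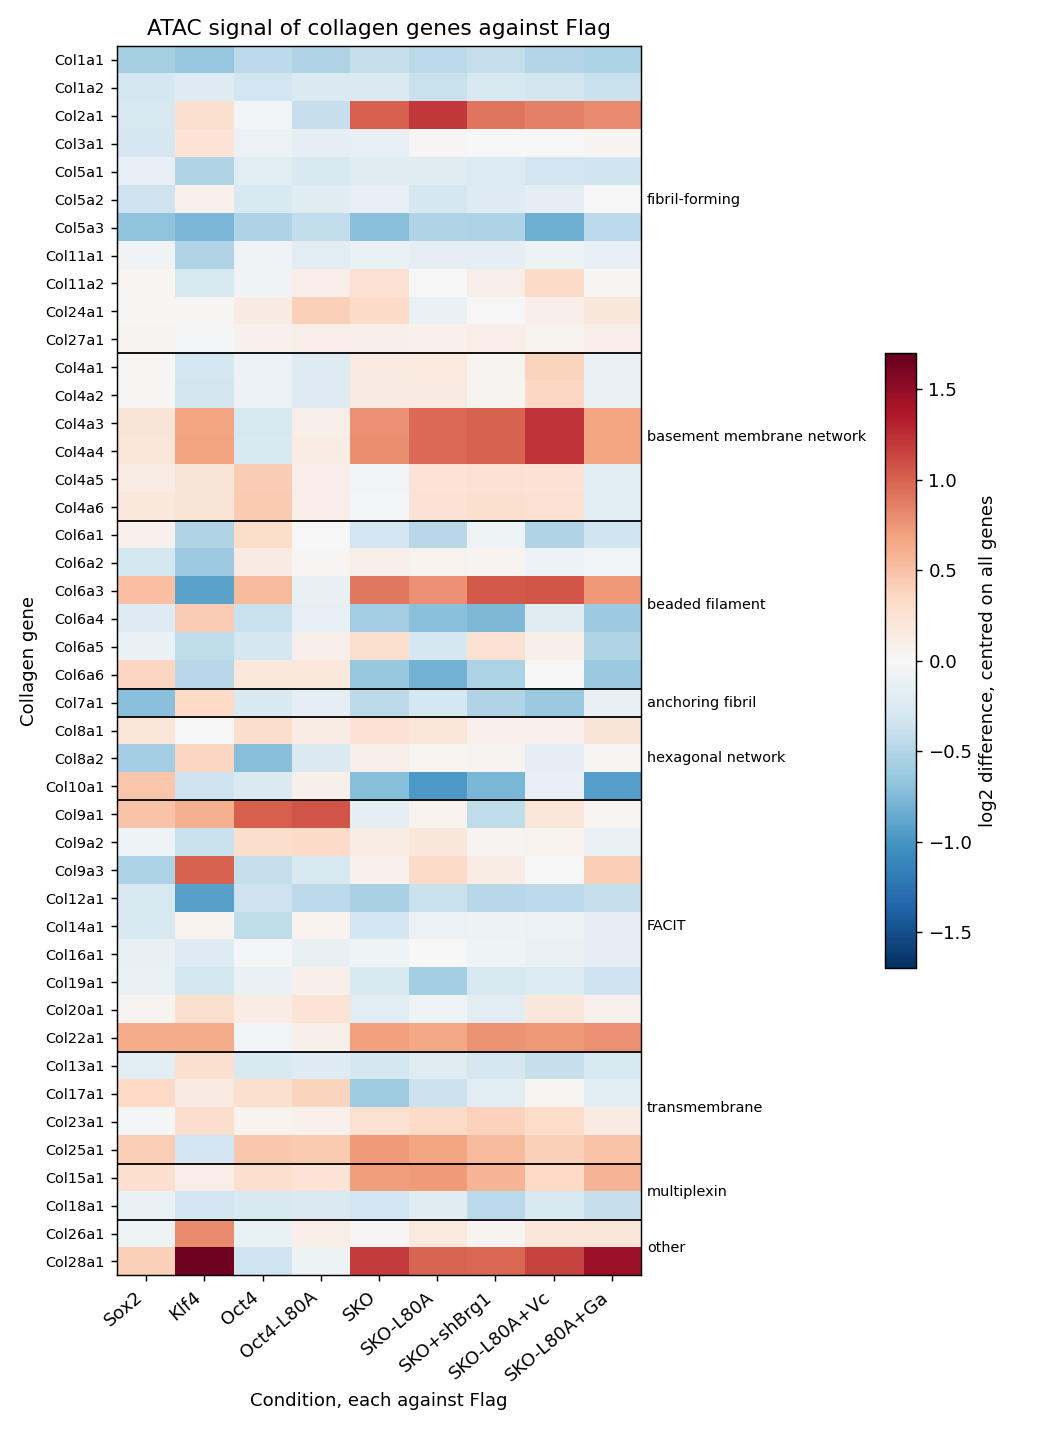
Centred log2 difference of 44 collagens (rows, by class) in 9 conditions (columns), each against Flag, red higher and blue lower than Flag. Col2a1, Col4a3, Col4a4, Col6a3 and Col28a1 are among the rows that are red in the columns with all 3 factors, and Klf4 is blue at Col6a3 (-0.90). Col1a1, Col1a2, Col5a1, Col5a3, Col11a1, Col12a1 and Col18a1 are below 0 in every column. All columns use the same Flag library.

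Among the fibril chains that fibroblasts make, Col1a1 and Col5a1 had a signal over 6.92 in all 20 columns. Col1a1 (ENSMUSG00000001506, chr11:94936224-94953042 in GRCm38.p6), the main chain of type I collagen, had 12.2 and 16.1 in Sox2, 13.3 and 15.6 in Klf4, 9.63 and 19.8 in Oct4-L80A, as well as 18.6 and 18.7 in the library labelled Oct4. It had 28.3 and 20.4 in SKO, 25 and 21.4 in SKO-L80A, 31.7 and 21.5 in SKO+shBrg1, 18.1 and 14.5 in SKO-L80A+Vc, and 21.9 and 15.8 in SKO-L80A+Ga, against 19.8 and 24.7 in Flag. By raw signal both columns of Sox2, Klf4, the library labelled Oct4 and SKO-L80A+Vc lay below both Flag columns. The ranges of the other conditions overlapped that of Flag. Relative to the median gene, Col1a1 was 1.25 to 1.58 log2 units above it in column 1 of the other conditions, against 2.12 in Flag, and 0.96 to 1.4 above it in column 2, against 1.69 in Flag. The centred differences were -0.64 in Klf4, -0.56 in Sox2, -0.54 in SKO-L80A+Ga, -0.51 in Oct4-L80A, -0.50 in SKO-L80A+Vc, -0.45 in SKO-L80A, -0.44 in the library labelled Oct4, -0.41 in SKO and -0.40 in SKO+shBrg1. None reached 2-fold, and because all 9 use the same Flag library they are not separate observations.

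Col1a1 was one of 3 collagens whose centred level in both Flag columns was above all 18 other columns, and 4.08% of all genes showed this. The others were Col1a2, the partner chain of type I collagen, and Col5a3, a chain of type V collagen, which controls fibril width. Col1a2 stood at 0.17 to 0.66 log2 units in the 18 other columns, against 0.81 and 0.80 in Flag. Col5a3 stood at 0.48 to 1.11 in the 18 others, against 1.55 and 1.41 in Flag. No collagen had both Flag columns below all others, a pattern that 0.856% of all genes showed. With 1 control library, this cannot be told apart from a feature of that library. The summed signal of the 8 fibroblast markers, in units of each column's median, was 12.2 to 18.8 in the 18 other columns, against 19.8 and 18.4 in Flag, and its part in these values was not tested.

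Other fibroblast collagens had differences of similar size. Col5a3 had a signal of 7.94 and 11.9 in Klf4 compared with 13.3 and 20.3 in Flag, a centred difference of -0.78, and its differences in the 9 conditions ran from -0.83 in SKO-L80A+Vc to -0.42 in Oct4-L80A. Col12a1, a FACIT chain on type I fibrils, had 7.64 and 11.9 in Klf4 compared with 15.2 and 20.9 in Flag. Its centred differences there were -1.10 in column 1 and -0.74 in column 2, with a mean of -0.92, the lowest of the 44 in Klf4, and only 0.656% of all genes were lower. In the other 8 conditions Col12a1 was between -0.55 and -0.27. Col5a1, the chain that starts fibril assembly, had 10.6 and 14.2 in Klf4 compared with 13.8 and 21.4 in Flag (-0.51), and -0.34 to -0.13 elsewhere. Col1a2 had 7.64 and 10.4 in Klf4 compared with 7.93 and 13.2 in Flag, and -0.38 to -0.22 over all 9.

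Col3a1 and Col5a2, chains of types III and V that lie 24624 bases apart, showed smaller values of both signs. Col3a1 had 4.97 and 7.64 in Klf4 and 3.39 and 4.56 in Sox2, against 4.31 and 6.14 in Flag, with centred differences of 0.23 and -0.28. Col5a2 had 11.3 and 15.3 in Klf4 and 6.84 and 11.8 in Sox2, against 8.71 and 17.2 in Flag, with 0.08 and -0.35. For the 11 fibril-forming chains together the median centred difference was -0.27 in Sox2 and -0.01 in SKO-L80A+Ga, and it lay between these in the other 7 conditions.

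**Figure D4:**
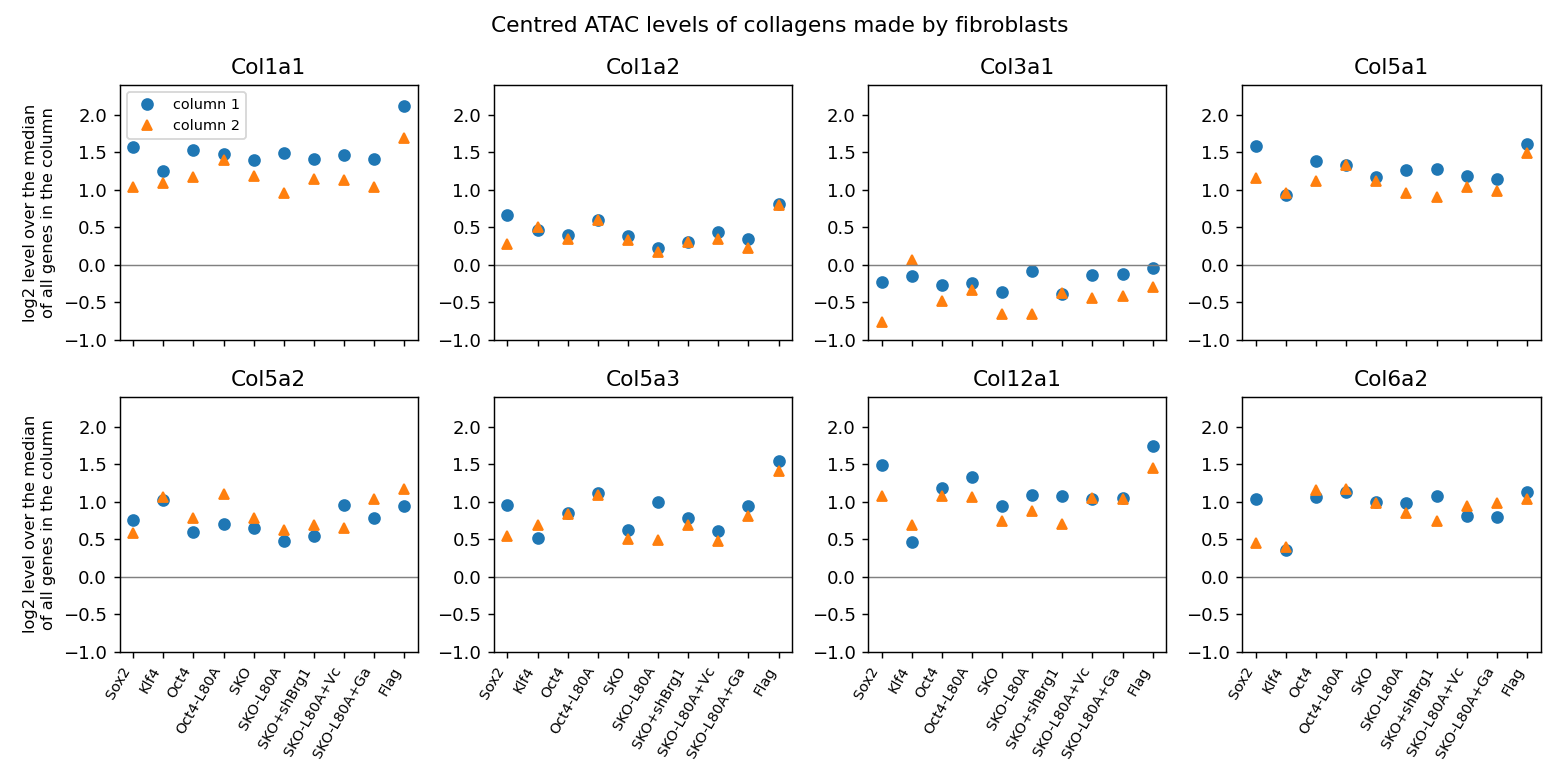
Log2 level over the median of all genes in the column, for 8 collagens that fibroblasts make, in 10 conditions (circles column 1, triangles column 2). Both Flag columns are above all 18 others for Col1a1 (2.12 and 1.69), Col1a2 and Col5a3. For Col5a1 and Col12a1 Flag is highest only when columns of the same number are compared. For Col3a1, Col5a2 and Col6a2 other conditions overlap it.

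Type II collagen of cartilage stood out among the fibril chains. Col2a1 (ENSMUSG00000022483, chr15:97975602-98004724) had 5.05 and 8.44 in Sox2, 9.46 and 11.4 in Klf4, 3.18 and 10.2 in Oct4-L80A, as well as 8.57 and 10.3 in the library labelled Oct4. With 3 factors it had 27.9 and 22.2 in SKO, 28.8 and 27.5 in SKO-L80A, 32.7 and 18.9 in SKO+shBrg1, 16.7 and 15.2 in SKO-L80A+Vc and 21.0 and 15.7 in SKO-L80A+Ga, against 5.96 and 11.9 in Flag. All 10 columns with 3 factors lie above all 10 others, also relative to the median gene, at 0.96 to 1.69 log2 units against -0.08 to 0.76. Col2a1 was the 1 collagen of 44 with this split, which was looked for after the values were seen, and 0.428% of all genes had it. Col2a1 was higher than Flag in SKO by 1.02 on the centred log2 scale (1.23 and 0.81 by column, 2.03-fold) and in SKO-L80A by 1.21 (1.52 and 0.89, 2.31-fold). The centred difference was 0.91 in SKO+shBrg1, 0.86 in SKO-L80A+Vc and 0.81 in SKO-L80A+Ga, under the 2-fold line. It was 0.27 in Klf4, -0.27 in Sox2, -0.39 in Oct4-L80A and -0.04 in the library labelled Oct4, which also has Sox2 signal. Quantile normalisation gave 0.87 in SKO and 1.03 in SKO-L80A, so the SKO call ends under it, and column 2 alone ends both calls.

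The other cartilage collagens had their highest centred differences from Flag in other libraries. Col9a3, a type IX chain on the surface of type II fibrils (ENSMUSG00000027570, chr2:180598102-180622192), had 6.25 and 8.90 in Klf4 compared with 2.98 and 4.27 in Flag. It was higher in Klf4 by 1.01 (0.91 and 1.11 by column, 2.01-fold), and by 0.90 after quantile normalisation, which ends the call, as do a pseudocount 4 times larger and column 1 alone. In Sox2 it had 1.89 and 2.71, a difference of -0.54, and in SKO 6.21 and 4.82, a difference of 0.07. Col9a1, another type IX chain, had 1.37 and 2.37 in Oct4-L80A, as well as 2.62 and 1.92 in the library labelled Oct4, against 0.740 and 1.07 in Flag. Those are differences of 1.07 and 1.01 at signals under 6.92, and in SKO, with 1.14 and 1.25, the value was -0.16. So the highest centred differences of Col2a1, Col9a3 and Col9a1 from Flag fell in different libraries.

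Col11a1, a chain of the type XI core of cartilage fibrils, had 4.74 and 6.43 in Klf4 and 11 and 9.90 in SKO, against 6.62 and 9.09 in Flag, with differences of -0.51 and -0.11. Col10a1, the chain of hypertrophic cartilage, was nearly closed, with 0.209 to 0.847 over all 20 columns. It had 0.286 and 0.273 in SKO-L80A against 0.421 and 0.446 in Flag, a difference of -0.97 that was the lowest of the 44 there. Col10a1 was also the lowest in SKO (-0.73), SKO+shBrg1 (-0.77) and SKO-L80A+Ga (-0.93), where the median of all genes under 6.92 was also below 0. The summed signal of 5 cartilage markers, Sox9, Acan, Comp, Matn1 and Matn3, was 38.2 in SKO, 40.7 in SKO-L80A, 42.8 in SKO+shBrg1, 27.7 in SKO-L80A+Vc and 33.0 in SKO-L80A+Ga, against 28.9 in Flag. It was 25.6 in Sox2, 24.6 in Klf4, 25.1 in Oct4-L80A and 30.7 in the library labelled Oct4. In units of each column's median, however, the cartilage sum was lower in SKO, with 4.06 and 3.74 against 5.38 and 4.48 in Flag. Of the 5 markers, 3 reached 6.92 in SKO and 1 in Flag, on the raw scale. The part of these markers in the Col2a1 values was not tested.

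**Figure D5:**
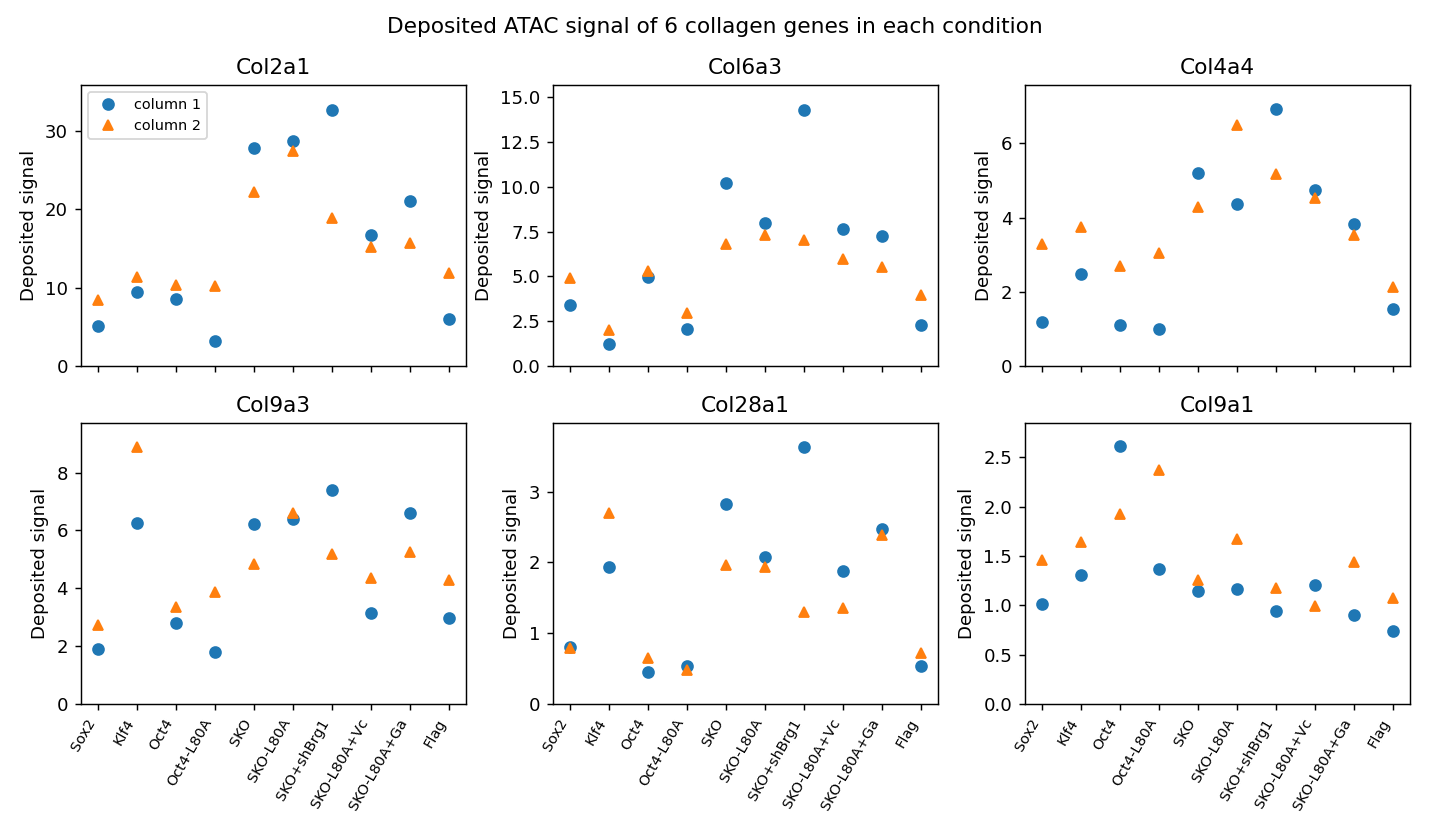
Deposited signal of 6 collagens in 10 conditions (circles column 1, triangles column 2, each panel from 0). Col2a1 has 15.2 to 32.7 in the 5 conditions with 3 factors and at most 11.9 in Flag. Col9a3 is highest at column 2 of Klf4 (8.90) and Col9a1 at column 1 of the library labelled Oct4 (2.62). In the other column Col9a3 is highest in SKO+shBrg1 (7.38) and Col9a1 in Oct4-L80A (2.37).

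Among the type IV chains of basement membranes, the pairs behaved differently. Col4a3 and Col4a4, chains of the kidney and lung basement membrane, had low signal throughout. Col4a4 had 2.48 and 3.74 in Klf4, a difference of 0.68, and 1.10 and 2.69 in the library labelled Oct4, a difference of -0.26. With 3 factors it had 5.21 and 4.30 in SKO, 4.37 and 6.51 in SKO-L80A, 6.92 and 5.19 in SKO+shBrg1, 4.76 and 4.53 in SKO-L80A+Vc and 3.82 and 3.54 in SKO-L80A+Ga, against 1.54 and 2.14 in Flag. The differences were 0.79, 0.97, 1.01, 1.23 and 0.67 in that order, none past the size rule because no mean reached 6.92. Relative to the median gene, the 12 columns with Klf4 in the virus lay above the 8 others for this pair alone among the collagens, Col4a4 at -1.11 to -0.43 against -2.39 to -1.21. This split was looked for after the values were seen, and 1.08% of all genes had it. Col4a3 had 5.21 and 4.29 in SKO compared with 1.54 and 2.16 in Flag, as 1 shared measurement with Col4a4.

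The widespread type IV pair Col4a1 and Col4a2 was open and lay near the median gene. Col4a1 had 14.1 and 12.1 in SKO, 11.1 and 10.8 in SKO-L80A+Vc and 5.51 and 8.08 in Klf4, against 6.48 and 10.1 in Flag, with differences of 0.15, 0.38 and -0.30. Col4a2 also had 14.1 and 12.1 in SKO, with 6.48 and 10.1 in Flag. The X-linked pair Col4a5 and Col4a6 was low. Col4a5 had 2.21 and 2.33 in SKO-L80A+Ga but 3.04 and 3.60 in the library labelled Oct4, against 1.64 and 2.65 in Flag, with differences of -0.18 and 0.43. Col4a6 had 2.2 and 2.3 in SKO-L80A+Ga, compared with 1.62 and 2.64 in Flag. The median of the 6 chains, which hold 3 measurements, ran from -0.11 in SKO-L80A+Ga to 0.37 in SKO-L80A+Vc.

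The chains of type VI collagen had unlike values. Col6a3 (ENSMUSG00000048126, chr1:90766860-90844001), the largest of them, had 3.42 and 4.92 in Sox2, 1.25 and 2.0 in Klf4, 2.04 and 2.94 in Oct4-L80A, as well as 4.95 and 5.31 in the library labelled Oct4. With 3 factors it had 10.2 and 6.82 in SKO, 7.96 and 7.31 in SKO-L80A, 14.3 and 7.01 in SKO+shBrg1, 7.67 and 5.97 in SKO-L80A+Vc and 7.24 and 5.51 in SKO-L80A+Ga, against 2.31 and 3.95 in Flag. Klf4 was the lowest library in both columns and the libraries with 3 factors were the highest by raw signal in each column. Col6a3 was higher in SKO+shBrg1 by 1.04 (1.44 and 0.64 by column, 2.06-fold) and by 0.79 after quantile normalisation, which ends the call, as do a pseudocount 4 times larger and column 2 alone. In SKO-L80A+Vc it was 1.07, with a mean of 6.82 just under the 6.92 needed, in SKO 0.89, in SKO-L80A 0.78 and in SKO-L80A+Ga 0.74. In Klf4 it was -0.90, a ratio of 0.535 at signals under 6.92, while it was 0.51 in Sox2 and 0.54 in the library labelled Oct4. In Oct4-L80A it was -0.13.

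The partner chains of type VI collagen had negative values beside Col6a3 in Klf4 but not its high values with 3 factors. Col6a2 had 7.07 and 9.65 in Klf4 and 21.3 and 17.7 in SKO, against 9.88 and 15.7 in Flag, with differences of -0.61 and 0.11. Col6a1 had 2.04 and 2.43 in Klf4 and 3.91 and 3.41 in SKO, against 2.92 and 3.40 in Flag, with -0.50 and -0.33. Thus in Klf4 all 3 classical chains had negative values, none past the rule, and in SKO only that of Col6a1 was negative. The other chains, Col6a4, Col6a5 and Col6a6, had means under 6.92 in every condition, with differences from Flag of -0.81 to 0.43.

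The chains of epithelial anchorage were included because fibroblasts are known to gain epithelial features during reprogramming. Col7a1, the anchoring fibril chain of skin, had 3.06 and 3.60 in Sox2 compared with 4.88 and 7.04 in Flag, a difference of -0.71 that was the lowest of the 44 in Sox2. In Klf4 Col7a1 had 6.82 and 8.45, a difference of 0.34, and in SKO 6.83 and 5.64, a difference of -0.45. Col17a1, a hemidesmosome chain that spans the membrane, had 1.12 and 1.11 in SKO and 1.72 and 1.65 in the library labelled Oct4, against 1.10 and 1.27 in Flag, with -0.60 and 0.27, and the highest value was 0.38 in Oct4-L80A. Neither passed the rule in any comparison. The summed raw signal of 7 epithelial markers was 18.5 in Sox2, 28 in Klf4 and 35.1 in SKO, against 15.5 in Flag. In any condition 0 to 3 of the 7 reached 6.92. In units of each column's median the sum was 3.18 and 3.12 in Sox2 and 4.11 and 4.60 in Klf4. It was 3.33 and 3.93 in SKO, against 2.62 and 2.57 in Flag. Its part in the values of Col7a1 and Col17a1 was not tested.

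The largest difference of all belonged to Col28a1, a chain related to type VI and known from peripheral nerve. It had 0.805 and 0.795 in Sox2, 0.530 and 0.472 in Oct4-L80A, as well as 0.453 and 0.650 in the library labelled Oct4. With Klf4 in the virus it had 1.93 and 2.70 in Klf4, 2.83 and 1.97 in SKO, 2.08 and 1.94 in SKO-L80A, 3.62 and 1.3 in SKO+shBrg1, 1.88 and 1.36 in SKO-L80A+Vc and 2.47 and 2.38 in SKO-L80A+Ga, against 0.533 and 0.716 in Flag. By raw signal every column with Klf4 in its virus was above every column without it, but relative to the median gene they overlapped, at -2.76 to -1.38 against -3.63 to -2.13. The differences were 1.65 in Klf4 (3.14-fold), 1.47 in SKO-L80A+Ga, 1.19 in SKO, 1.14 in SKO-L80A+Vc and 0.98 in both SKO-L80A and SKO+shBrg1. All are at signals under 6.92, so none counts by the rule. This pattern was picked out after the values were seen.

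Col22a1, a FACIT chain of muscle and tendon junctions, gave the highest value in Sox2, with 2.11 and 3.44 against 1.54 and 2.12 in Flag, a difference of 0.63. It was 0.66 to 0.78 in the 5 conditions with 3 factors and -0.05 in the library labelled Oct4. Col8a2, a hexagonal network chain of the cornea, gave the lowest value in the library labelled Oct4, with 2.75 and 3.42 against 3.56 and 5.68 in Flag, a difference of -0.73. Col26a1, a chain known from testis and ovary, had 6.32 and 11.1 in Klf4 compared with 3.06 and 7.07 in Flag, a difference of 0.80, and -0.12 to 0.21 elsewhere. Col15a1, a multiplexin of the zone beneath basement membranes, had 7.07 and 8.63 in SKO-L80A against 2.73 and 3.77 in Flag, a difference of 0.73. Col25a1, a transmembrane chain of neurons, had 2.60 and 2.77 in Klf4 and 8.41 and 7.95 in SKO, against 2.91 and 3.84 in Flag, with -0.33 and 0.72. So in SKO and SKO-L80A several chains outside the fibroblast set lay between 0.5 and 1 in log2, under the 2-fold line. The other members had smaller values: Col18a1, the multiplexin that gives rise to endostatin, had -0.45 to -0.11 over the 9 conditions, Col13a1 -0.39 to 0.27, Col23a1 -0.01 to 0.39 and Col8a1 0.01 to 0.30. Among minor fibril and FACIT chains the ranges were -0.04 to 0.12 for Col27a1, -0.12 to 0.40 for Col24a1, -0.28 to 0.33 for Col11a2, -0.37 to 0.33 for Col9a2, -0.44 to 0.06 for Col14a1, -0.22 to 0.00 for Col16a1, -0.58 to 0.09 for Col19a1 and -0.20 to 0.28 for Col20a1. Col16a1 and Col27a1 thus had the narrowest ranges among these. Class medians stayed between -0.16 and 0.09 for the 9 FACIT chains and between -0.03 and 0.22 for the 4 transmembrane chains.

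The comparisons without Flag set side by side libraries that differ by label in the mutant, shBrg1, vitamin C or Gadd45a. No collagen was past the size rule in any of the 5. The share of all genes past it was 0.209% for Oct4-L80A against the library labelled Oct4, 0.00911% for SKO-L80A against SKO, 0.00455% for SKO+shBrg1 against SKO, 0.00911% for SKO-L80A+Vc against SKO-L80A and 0% for SKO-L80A+Ga against SKO-L80A. Almost no gene passed, so 0 collagens is near the background. The collagen medians were 0.08, -0.01, 0.01, 0.03 and 0.00 in the same order.

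For Oct4-L80A against the library labelled Oct4 the extremes were Col6a3, with 2.04 and 2.94 against 4.95 and 5.31, a centred difference of -0.63, and Col14a1, a FACIT chain, with 2.60 and 6.53 against 2.85 and 4.90, a difference of 0.54. The Sox2 signal of the library labelled Oct4 bears on this comparison, and its part was not tested. Col6a3 is also the gene with 3.42 and 4.92 in the Sox2 library. For SKO-L80A against SKO the extremes were Col6a5, with 1.37 and 1.7 against 2.80 and 1.97 (-0.58), and Col4a6, with 3.78 and 3.45 against 3.01 and 2.97 (0.26). Col2a1 and Col6a3, past the rule against Flag, had 0.17 and -0.13 here.

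For SKO+shBrg1 against SKO, Col17a1 had 2.01 and 1.36 against 1.12 and 1.11 (0.43) and Col24a1, a minor fibril chain, had 5.03 and 3.77 against 6.46 and 3.98 (-0.30). Col6a3 had 0.17, although it passed the rule against Flag in SKO+shBrg1 and not in SKO. For SKO-L80A+Vc against SKO-L80A, Col10a1 had 0.316 and 0.508 against 0.286 and 0.273 (0.86), near the bottom of the scale, and Col15a1 had 4.40 and 4.11 against 7.07 and 8.63 (-0.38). Vitamin C is a cofactor of the prolyl hydroxylases that modify collagen protein, which this assay does not measure. For SKO-L80A+Ga against SKO-L80A, Col28a1 had 2.47 and 2.38 against 2.08 and 1.94 (0.51) and Col4a6 had 2.2 and 2.3 against 3.78 and 3.45 (-0.40). Col2a1 had -0.33 with vitamin C and -0.38 with Gadd45a, against the same SKO-L80A library.

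The machinery around collagen was described from a list of hydroxylases, chaperones, procollagen proteinases, receptors and collagenases, of which 48 genes were in the table. Of these, 1 was past the size rule, in Klf4 against Flag, near the 0.874% of all genes past it there. Lair1, an inhibitory collagen receptor of immune cells, was higher in Klf4 with 5.79 and 9.53 against 1.72 and 3.67 in Flag, a centred log2 difference of 1.48 or 2.79-fold. The other 13 comparisons had 0 of 48 in either direction, and the list medians ran from -0.13 in Sox2 to 0.17 in SKO-L80A, both against Flag. The summed signal of 4 blood markers was 7.44 in Klf4, with 0 of them at 6.92, against 4.52 in Flag. By raw signal it was higher still in SKO (8.71), SKO-L80A (8.56), SKO+shBrg1 (11.1), SKO-L80A+Vc (7.89) and SKO-L80A+Ga (8.24), where Lair1 was not past the rule. In units of each column's median it was 1.12 and 1.19 in Klf4, against 0.85 and 0.70 in Flag. On that scale it was 1.01 and 0.75 in SKO, 0.995 and 0.762 in SKO-L80A and 1.15 and 0.899 in SKO+shBrg1. It was 1.36 and 1.07 in SKO-L80A+Vc and 1.09 and 0.997 in SKO-L80A+Ga. Its part in the Lair1 value was not tested.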

How the data were processed

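ATAC-seq was done by the submitters on MEFs of 10 conditions with 1 library each. The deposited table gives a signal per Ensembl gene, named a density by the authors, in 20 columns. Per the submitters' processing notes, the build was mm10 and Bowtie2 2.2.5, MACS2 2.1.0, SAMtools 1.3.1 and bedtools 2.25.0 were among the tools. The role of each tool, the window counted and the scaling are not given, and the depth is unknown.

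From the deposited signal, log2(signal + 0.138) differences were computed over all 21965 genes, centred per column on the median of all genes and averaged. The pseudocount is the 10th percentile of values above 0. A fold is on this scale and understates low genes. No test was made. The code was tested on simulated data. Gene coordinates and promoters are RefSeq, GRCm38.p6. Values of both columns are given for collagens past the size rule, for a fixed group of 21 chains, and for the highest and lowest collagen of each comparison; pathway genes past the rule are named. Other values were chosen after they were seen. Alternatives were another pseudocount, no minimum, no centring, quantile normalisation and each column alone. The members and lists were chosen with earlier results of these data known. Python 3.11.15, numpy 2.4.6 and pandas 2.3.3 were used.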

Additional observations from a re-analysis of the deposited data

How the results depend on the processing

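The count of collagens past the size rule was recomputed for each of the 14 comparisons under 7 alternatives. Of 98 counts, 74 stayed within 1.5 times the main one, but most of these were 0 under both settings. Klf4, SKO, SKO-L80A and SKO+shBrg1 against Flag had a main count of 1. Among the alternative counts of these comparisons, more moved than stayed within that limit. Without the minimum signal, the counts against Flag were 2 for Klf4, 1 for the library labelled Oct4, 1 for Oct4-L80A, 2 for SKO, 3 for SKO+shBrg1, 4 for SKO-L80A+Vc and 1 for SKO-L80A+Ga. Of all 21965 genes, this setting called 597 higher and 97 lower for Klf4, and 470 and 718 for SKO. It called 462 and 1202 for SKO+shBrg1 and 464 and 241 for SKO-L80A+Vc. For the library labelled Oct4 it called 183 and 155, for Oct4-L80A 165 and 29 and for SKO-L80A+Ga 408 and 205. Without centring the collagen counts were 4 for SKO, 4 for SKO-L80A, 5 for SKO+shBrg1 and 1 for SKO-L80A+Ga. Of all 21965 genes, 1370 were then higher and 4 lower for SKO, and 1379 and 4 for SKO-L80A. For SKO+shBrg1 they were 2222 and 4, and for SKO-L80A+Ga 361 and 4. The larger collagen counts thus came with larger counts over all genes. Quantile normalisation gave 0 collagens for Klf4, SKO and SKO+shBrg1, and a pseudocount 4 times larger gave 0 for Klf4 and SKO+shBrg1. Column 1 alone gave 2 collagens for SKO, SKO-L80A, SKO+shBrg1 and SKO-L80A+Vc and 1 for SKO-L80A+Ga, and column 2 alone gave 0 for SKO, SKO-L80A and SKO+shBrg1. Of all genes, column 1 called 440 higher and 12 lower for SKO, 366 and 18 for SKO-L80A and 448 and 15 for SKO+shBrg1. It called 285 and 26 for SKO-L80A+Vc and 323 and 13 for SKO-L80A+Ga. In Klf4 column 1 called Col12a1, lower, in place of Col9a3. Sox2 against Flag and the 5 comparisons without Flag had 0 under all 7. Of 4312 single differences 638 moved, as did 36 of 98 collagen medians, and 0 reversed past the rule. The cause was not tested. With 1 library per condition, leaving one out was not possible, and the unknown depth limits all values, most at genes of low signal. No paired analysis was possible because each condition has 1 library.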
